A study of Mus musculus with 8 samples.

Results

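Transcripts of 9 genes that mark injured, repairing or progenitor-like kidney tubule cells were followed in RNA sequencing libraries of TGF-β-stimulated mouse kidney cultures. The genes were Havcr1, Lcn2, Clu, Sox9, Sox4, Vcam1, Cd24a, Prom1 and Ggt1. They were chosen as known markers, with earlier results of these data known, and were found by symbol among the 22322 genes of the deposited table. All 9 were present and had enough counts to be tested. The labels give 8 samples of primary renal fibroblasts from mouse kidney, grown in serum-containing medium and treated with TGF-β at 5 ng/ml for 48 hours. In the 4 Ad-Cre samples an adenovirus delivered Cre recombinase, and the label reads suv39h1 knockdown. In the 4 Ad-GFP samples the adenovirus delivered green fluorescent protein instead, and the label reads WT. Suv39h1 is a histone H3 lysine 9 methyltransferase, and the comparison asked how its depletion alters expression in stimulated cells. Both groups received virus and TGF-β, so neither an uninfected nor an unstimulated level enters the comparison. No label gives the allele on which Cre acts, the age of the mice or the number of animals. Whether replicates were separate cultures or animals is not stated, so p-values here reflect the spread among these libraries alone, and that spread may be technical.

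Injury of the kidney tubule switches on a characteristic set of genes in surviving epithelial cells. Damaged proximal tubule cells lose brush-border functions, display Havcr1 at their surface and secrete Lcn2 and Clu, while Sox9 and Sox4 mark cells that return to a more embryonic programme. Cells that fail to recover keep Vcam1. In human kidney, CD24 and CD133 (the product of PROM1) label scattered tubular cells with progenitor-like properties, and Ggt1 is an enzyme of the mature proximal tubule brush border.

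Of the 9 genes, 7 rose and 1 fell in Ad-Cre, and Prom1 was not called. By the same test, edgeR's quasi-likelihood test with an adjusted p under 0.05, 40.3% of the 13337 tested genes were called, 19.8% as higher and 20.5% as lower in Ad-Cre. DESeq2 called the same 8 of the 9 genes in the same directions, and 34.3% of all tested genes. In all 7 genes that rose, each Ad-Cre library lay above each Ad-GFP library. Such a separation was found for 35.4% of all tested genes in either direction and for 17.2% with Ad-Cre higher. The median log2 fold change of Ad-Cre over Ad-GFP was 0.24 over the 9 genes, against 0.004 over all tested genes. The changes were modest, with the risers at 107.0% to 154.4% of their Ad-GFP level. Levels are given as CPM, counts scaled to a common library total, and the libraries held 15879244 to 23940043 counts, with every Ad-Cre library deeper than every Ad-GFP library.

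**Figure D1:**
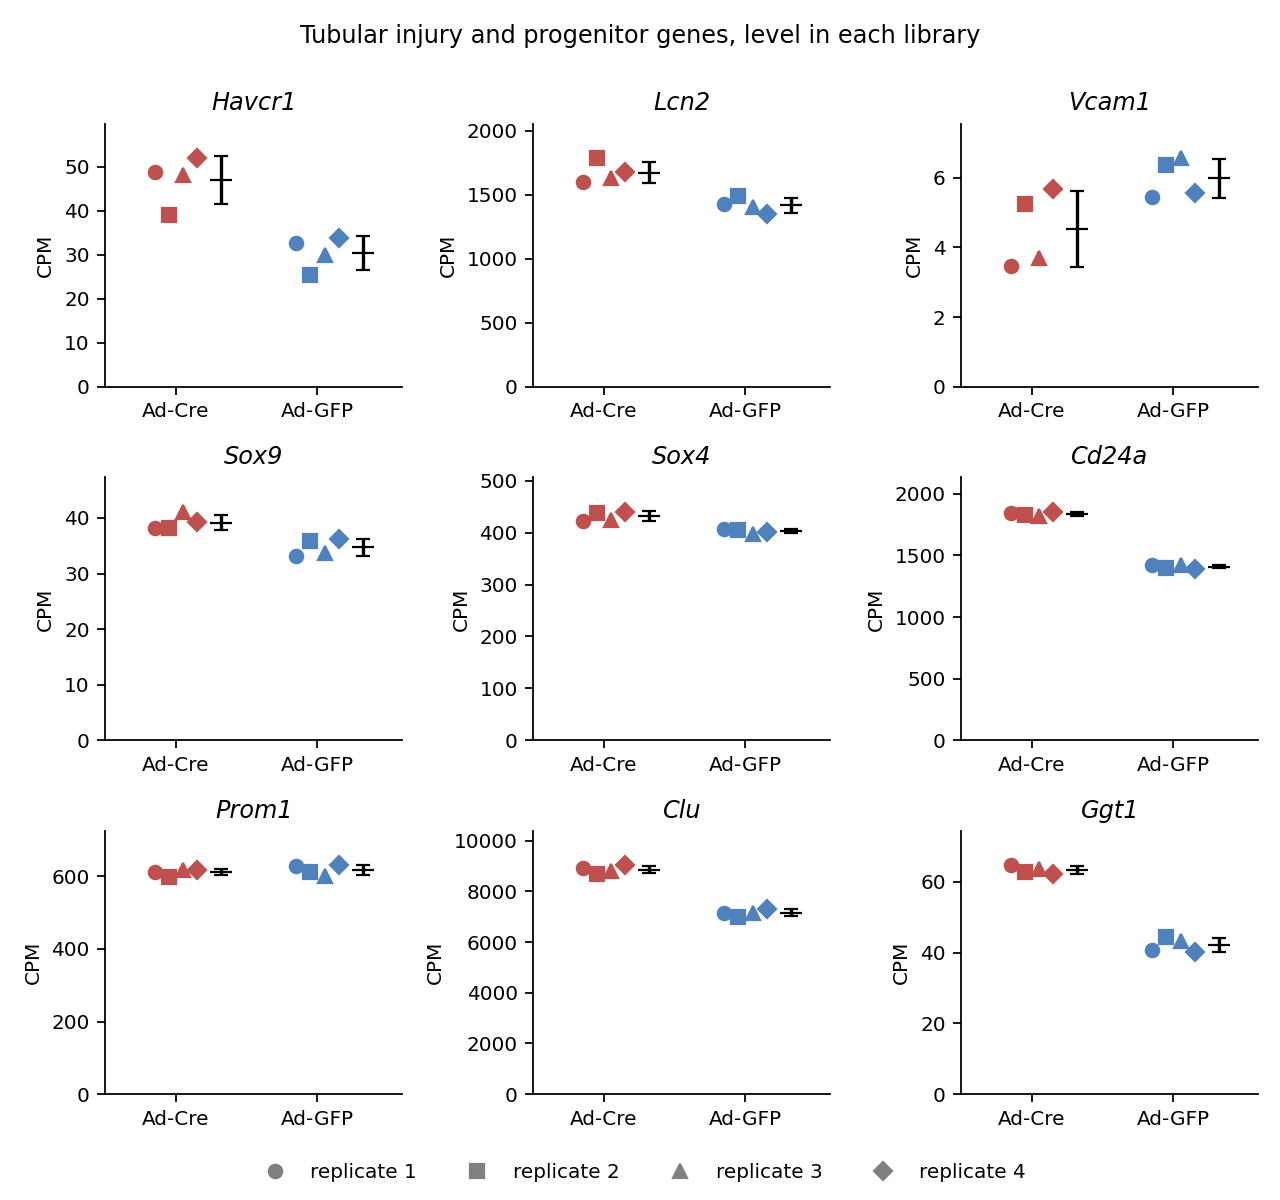
Level of each of the 9 genes in CPM (vertical axes start at 0) in the 4 Ad-Cre and the 4 Ad-GFP libraries. Each symbol is one library, its shape gives the replicate number, and the bar to the right of each group is its mean ± SD. The groups are separate in every panel except those of Vcam1 and Prom1.

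Suv39h1 was at 23.1 ± 1.6 CPM in Ad-Cre and 28.9 ± 0.8 CPM in Ad-GFP (SD, n = 4), which is 79.6% of the Ad-GFP level (edgeR adjusted p = 3.29e-05). Exons of the antisense gene Gm14820 overlap its exons over 767 bases. The labelled cell type was checked on deposited FPKM, which scales counts by gene length and library depth. All 17 general epithelial markers were tested, with group means of 3.70 to 600.7 FPKM in Ad-Cre and 4.485 to 773.5 FPKM in Ad-GFP. Among them the keratin gene Krt8 was at 591.8 ± 9.4 FPKM in Ad-Cre and 773.5 ± 19.9 FPKM in Ad-GFP (SD, n = 4), and the adhesion gene Epcam at 185.2 ± 2.0 FPKM in Ad-Cre and 159.6 ± 3.7 FPKM in Ad-GFP. Of 12 fibroblast markers, 9 had enough counts to be tested, and the 5 of highest level are given first. The filament gene Vim was at 75.6 ± 3.6 FPKM in Ad-Cre and 116.1 ± 2.6 FPKM in Ad-GFP, and the collagen gene Col1a2 at 24.0 ± 1.3 FPKM in Ad-Cre and 36.7 ± 2.0 FPKM in Ad-GFP. Col1a1 was at 22.0 ± 1.7 FPKM in Ad-Cre and 35.1 ± 1.9 FPKM in Ad-GFP, Col3a1 at 8.07 ± 1.47 FPKM in Ad-Cre and 9.97 ± 0.19 FPKM in Ad-GFP, and the receptor gene Pdgfrb at 4.68 ± 0.25 FPKM in Ad-Cre and 5.21 ± 0.34 FPKM in Ad-GFP. The other 7, Pdgfra, Dcn, Thy1, S100a4, Lum, Dpt and Pi16, averaged at most 2.83 FPKM in Ad-Cre and 4.20 FPKM in Ad-GFP. Libraries labelled as fibroblasts thus held abundant epithelial transcripts beside vimentin and collagen transcripts, and which cells made the transcripts described here was not determined. Fewer cells of a type and less RNA per cell cannot be told apart in these bulk libraries.

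Several of the 9 genes ranked among the most abundant transcripts of the libraries. Ranked by mean FPKM over all libraries, Clu was number 10, Lcn2 number 15 and Cd24a number 32 of the 13337 tested genes. Prom1 was number 309, Sox4 number 733, Ggt1 number 2267 and Havcr1 number 3972, followed by Sox9 at 7095 and Vcam1 at 10827. The order of the 9 genes per length was the same in Ad-Cre and Ad-GFP, and no 2 neighbours in it overlapped within a group. Clu took 0.879% of the counts of an Ad-Cre library and 0.72% of those of an Ad-GFP library on average. The 9 genes summed to 13470.4 to 13781.8 CPM in Ad-Cre and 10997.3 to 11206.1 CPM in Ad-GFP libraries.

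**Figure D2:**
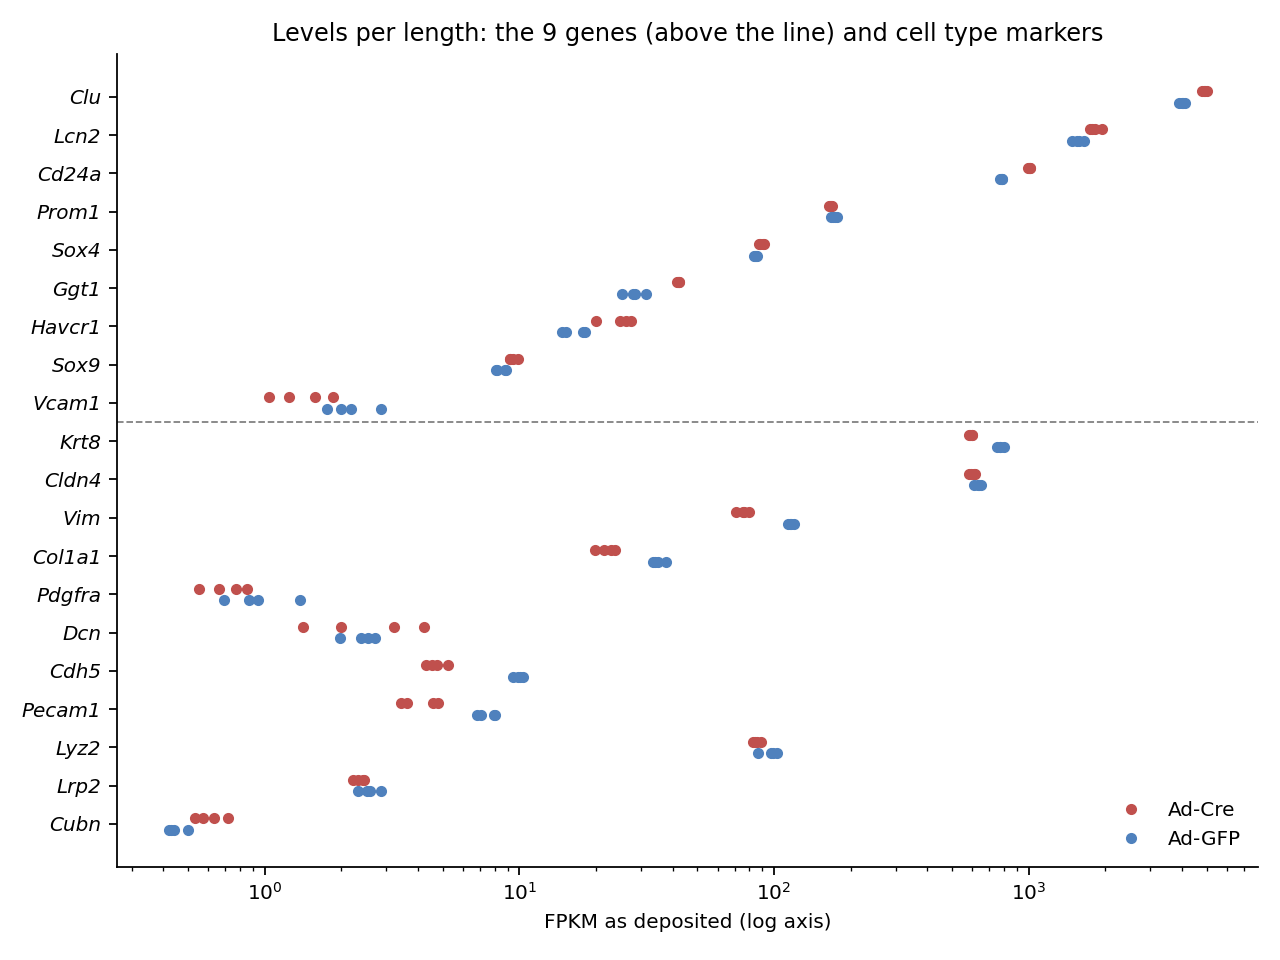
Deposited FPKM on a log axis for the 9 genes, sorted by level, and for 11 cell type markers, epithelial and proximal tubule genes among them, below the dashed line. Each point is one library, with Ad-Cre above Ad-GFP in each row. Clu and Lcn2 lie above the epithelial genes Krt8 and Cldn4, Cd24a lies near them, and Vcam1 lies among the scarce markers.

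Among the markers of acute injury, Havcr1 rose by the largest factor, close to that of Ggt1, described further on. The order of these 2 turned under some settings: without Ad-GFP replicate 2 the log2 values were 0.545 for Havcr1 and 0.61 for Ggt1, without Ad-Cre replicate 4 they were 0.57 and 0.591, and by limma on log2(FPKM + 1) they were 0.553 and 0.56. Havcr1, also known as KIM-1, encodes a surface receptor for phosphatidylserine that lets injured tubule cells engulf dying neighbours. It was at 48.8, 39.0, 48.0 and 51.9 CPM in replicates 1 to 4 of Ad-Cre, against 32.6, 25.3, 30.0 and 33.8 CPM in replicates 1 to 4 of Ad-GFP. The groups did not overlap, and replicate 2 was the lowest library of both. Havcr1 rose to 154.4% of Ad-GFP with a 95% interval of 138.5% to 172.0% (log2 value 0.63, SE 0.076, 4 libraries a group; edgeR adjusted p = 2.55e-07), and 0.847% of all tested genes had a higher one. Its spread between replicates was wide for its level, with a coefficient of variation of 11.8% in Ad-Cre and 12.4% in Ad-GFP. The gene lies on the plus strand of chromosome 11 at 46735080 to 46779578 (GRCm38), and its principal transcript has 8 exons.

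The RefSeq promoter table of GRCm38.p6 held windows for 5 of the 9 genes, Havcr1, Lcn2, Sox4, Prom1 and Ggt1. Clu, Cd24a, Sox9 and Vcam1 are named only. Each window runs from 250 bases before to 50 bases after a start site. Both strands were searched for motifs of factors known in tubule injury. These were the NF-kB consensus, the STAT motif TTCNNNGAA, the AP-1 motif TGANTCA, the TEAD motif GGAATG and the heat shock factor motif TTCNNGAA. SOX proteins were represented by ACAAAG, and a second form of the SOX motif searched for was ACAATG. The stretch before the start of the principal Havcr1 transcript is shown because this gene and Ggt1 had the largest log2 fold changes of the 9. It lies inside the span of longer annotated Havcr1 transcripts, on the plus strand at chr11:46750918-46751167, and held none of the motifs, so it has no capitals.
Havcr1: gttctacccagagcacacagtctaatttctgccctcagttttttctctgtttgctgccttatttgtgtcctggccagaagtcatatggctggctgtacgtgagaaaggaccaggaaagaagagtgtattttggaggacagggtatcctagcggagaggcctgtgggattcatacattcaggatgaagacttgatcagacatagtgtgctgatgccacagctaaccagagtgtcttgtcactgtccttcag
The window continues into the transcript, where TGAATCA, a match to the AP-1 motif, began 11 bases after the start. A match to that motif was found in 7.81% of all 32851 windows.

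Lcn2 and Clu, which encode the secreted injury proteins, rose by smaller factors from very high levels. Lcn2 (chromosome 2, 32384633 to 32388252, minus strand, 6 exons) encodes lipocalin 2, or NGAL, which binds bacterial siderophores and is released by damaged tubules. It was at 1600.3, 1788.1, 1630.1 and 1677.9 CPM in replicates 1 to 4 of Ad-Cre, against 1430.0, 1493.2, 1402.4 and 1349.2 CPM in replicates 1 to 4 of Ad-GFP. The groups did not overlap, and replicate 2 was the highest library of both, the reverse of Havcr1. Lcn2 rose to 118.0% of Ad-GFP (95% interval 113.4% to 122.8%; log2 value 0.24, SE 0.028; edgeR adjusted p = 1.44e-07). Its single promoter window on chromosome 2 matched none of the motifs.

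Clu (chromosome 14, 65968483 to 65981547, plus strand, 9 exons) encodes clusterin, a secreted chaperone of misfolded proteins that rises in many forms of kidney damage. It was at 8906.5, 8678.0, 8823.9 and 9032.4 CPM in replicates 1 to 4 of Ad-Cre, against 7162.1, 6973.0, 7164.7 and 7316.4 CPM in replicates 1 to 4 of Ad-GFP. The gap between the groups was larger than the SDs of 148.6 CPM in Ad-Cre and 140.6 CPM in Ad-GFP. Clu rose to 123.8% of Ad-GFP (95% interval 121.1% to 126.7%; edgeR adjusted p = 3.14e-14).

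The SOX transcription factor genes Sox9 and Sox4 rose least. Sox9 (chromosome 11, 112782224 to 112787760, plus strand, 3 exons) drives nephron and duct formation in the embryo and is turned on again in tubule cells that repair themselves. It was at 38.2, 38.1, 41.1 and 39.3 CPM in replicates 1 to 4 of Ad-Cre, against 33.2, 35.9, 33.7 and 36.3 CPM in replicates 1 to 4 of Ad-GFP. The highest Ad-GFP library lay less than 2 CPM below the lowest Ad-Cre library. Sox9 rose to 112.7% of Ad-GFP (95% interval 105.4% to 120.6%; log2 value 0.17, SE 0.047; edgeR adjusted p = 0.0048), and that call was lost by limma on log2(FPKM + 1) without a filter (adjusted p = 0.0628).

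Sox4 (chromosome 13, 28948919 to 28953713, minus strand), of the SOXC group, was more abundant, at 89.2 FPKM in Ad-Cre and 84.6 FPKM in Ad-GFP, whereas Sox9 was at 9.40 FPKM in Ad-Cre and 8.46 FPKM in Ad-GFP. It was at 421.3, 438.4, 424.3 and 440.2 CPM in replicates 1 to 4 of Ad-Cre, against 407.7, 404.9, 397.4 and 401.2 CPM in replicates 1 to 4 of Ad-GFP. The groups were separate but close, and Sox4 rose to only 107.0% of Ad-GFP (95% interval 103.8% to 110.4%; edgeR adjusted p = 0.000746). Of all tested genes, 57.9% had a larger absolute log2 fold change. Exons of Gm26735 overlap the single exon of Sox4 on the other strand over 2616 bases, and whether counting used strand is not stated, so reads of the 2 genes cannot be told apart. The Sox4 window is shown because it held one of the motifs, printed in capitals, a GGAATG match for TEAD that begins 168 bases before the start. A match to that motif was found in 14.7% of all windows. The bases outside the annotated exon, on the minus strand at chr13:28953714-28953949, read as follows.
Sox4: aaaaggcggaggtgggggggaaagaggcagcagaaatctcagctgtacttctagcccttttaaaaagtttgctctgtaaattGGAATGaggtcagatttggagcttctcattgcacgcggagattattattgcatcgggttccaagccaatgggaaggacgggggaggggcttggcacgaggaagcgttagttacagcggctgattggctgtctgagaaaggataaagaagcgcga

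The 2 progenitor surface markers parted. Cd24a (chromosome 10, 43578284 to 43584265, plus strand, 2 exons) encodes a small, heavily glycosylated protein anchored in the membrane. It was at 1846.9, 1825.8, 1817.0 and 1855.3 CPM in replicates 1 to 4 of Ad-Cre, against 1420.8, 1402.0, 1420.8 and 1392.7 CPM in replicates 1 to 4 of Ad-GFP. Replicates differed by about 1%, the tightest of the 9 genes in both groups. Cd24a rose to 130.3% of Ad-GFP with a 95% interval of 127.2% to 133.5% (log2 value 0.38, SE 0.017; edgeR adjusted p = 2.18e-15).

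Prom1 (chromosome 5, 43993620 to 44102032, minus strand, 27 exons) encodes prominin 1, or CD133, a protein of membrane protrusions. It was at 612.5, 598.8, 618.8 and 616.8 CPM in replicates 1 to 4 of Ad-Cre, against 629.2, 612.4, 600.2 and 630.8 CPM in replicates 1 to 4 of Ad-GFP. The groups overlapped, and Prom1 in Ad-Cre stood at 99.0% of Ad-GFP (95% interval 96.0% to 102.0%; edgeR adjusted p = 0.597). The promoter window nearest the principal Prom1 start held an AP-1 match 88 bases before its start site and a heat shock factor match 7 bases after it. Another window, farther downstream, held an AP-1 match 189 bases and a heat shock factor match 237 bases before its start site. The AP-1 motif was found in 7.81% and the heat shock factor motif in 8.52% of all windows. Exons of the antisense gene Gm16401 overlap those of Prom1 over 424 bases. Its relative Prom2 was scarce but rose, to 2.98 ± 0.56 CPM in Ad-Cre, against 1.70 ± 0.20 CPM in Ad-GFP (edgeR adjusted p = 0.000916; named after its values were seen).

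Ggt1, the mature brush-border enzyme, rose together with the injury markers. Ggt1 (chromosome 10, 75561604 to 75586200, plus strand, 14 exons) encodes γ-glutamyltransferase 1, which cleaves glutathione outside the cell. It was at 64.7, 62.7, 63.6 and 62.3 CPM in replicates 1 to 4 of Ad-Cre, against 40.8, 44.3, 43.4 and 40.1 CPM in replicates 1 to 4 of Ad-GFP. Every Ad-Cre library was well above the highest Ad-GFP library. Ggt1 rose to 150.0% of Ad-GFP (95% interval 141.5% to 158.9%; log2 value 0.58, SE 0.041; edgeR adjusted p = 1.08e-11), and 1.06% of all tested genes had a higher log2 fold change. The gene has several start sites, and the table held 4 windows for it. The window nearest its principal start and another farther downstream, the only one with a match, are shown outside annotated exons on the plus strand at chr10:75568412-75568633 and chr10:75573245-75573447. The capitals in the second mark a match to the SOX motif ACAAAG, which was found in 18.7% of all windows.
Ggt1 upstream window: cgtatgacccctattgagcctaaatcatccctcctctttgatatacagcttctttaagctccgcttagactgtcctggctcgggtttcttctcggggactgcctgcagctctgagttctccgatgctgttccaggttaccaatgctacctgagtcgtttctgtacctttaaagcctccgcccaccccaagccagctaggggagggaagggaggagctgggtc
Ggt1 downstream window: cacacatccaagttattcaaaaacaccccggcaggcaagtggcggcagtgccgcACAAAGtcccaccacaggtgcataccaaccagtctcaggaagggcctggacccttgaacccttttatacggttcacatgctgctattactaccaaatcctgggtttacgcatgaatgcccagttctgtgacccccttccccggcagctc
Which start sites were in use in either group cannot be read from counts per gene.

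Vcam1 went the other way and was the least abundant of the 9 genes. Vcam1 (chromosome 3, 116109949 to 116129688, minus strand, 9 exons) encodes an adhesion molecule for leukocyte integrins, present on activated endothelium and on tubule cells that fail to recover. The libraries held 62, 125, 77 and 125 Vcam1 counts in Ad-Cre replicates 1 to 4, against 95, 115, 111 and 89 in Ad-GFP replicates 1 to 4. These are 3.47, 5.26, 3.70 and 5.66 CPM in Ad-Cre and 5.45, 6.36, 6.56 and 5.565 CPM in Ad-GFP, and the groups overlapped. Vcam1 fell to 76.4% of Ad-GFP (95% interval 62.4% to 93.6%; log2 value -0.39, SE 0.14; edgeR adjusted p = 0.0308). That call was lost without Ad-Cre replicate 1 (adjusted p = 0.103), Ad-Cre replicate 3 (0.115), Ad-GFP replicate 2 (0.0834) or Ad-GFP replicate 3 (0.0934), and DESeq2 gave an adjusted p = 0.0432. In the authors' deposited table its FDR was 0.0776, while the 7 genes that rose here had positive log2 fold changes of 0.077 (Sox4) to 0.585 (Havcr1). Exons of Gm43109 overlap those of Vcam1 on the other strand over 61 bases. Endothelial markers moved with it: 13 of 14 tested genes of that list fell and 0 rose, where 20.5% of all tested genes fell. The list summed to 85.7 to 97.8 CPM in Ad-Cre and 172.5 to 180.1 CPM in Ad-GFP. The VE-cadherin gene Cdh5 was at 48.3% of Ad-GFP and Pecam1 at 49.7%. The part of these cells in the Vcam1 difference was not tested.

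**Figure D3:**
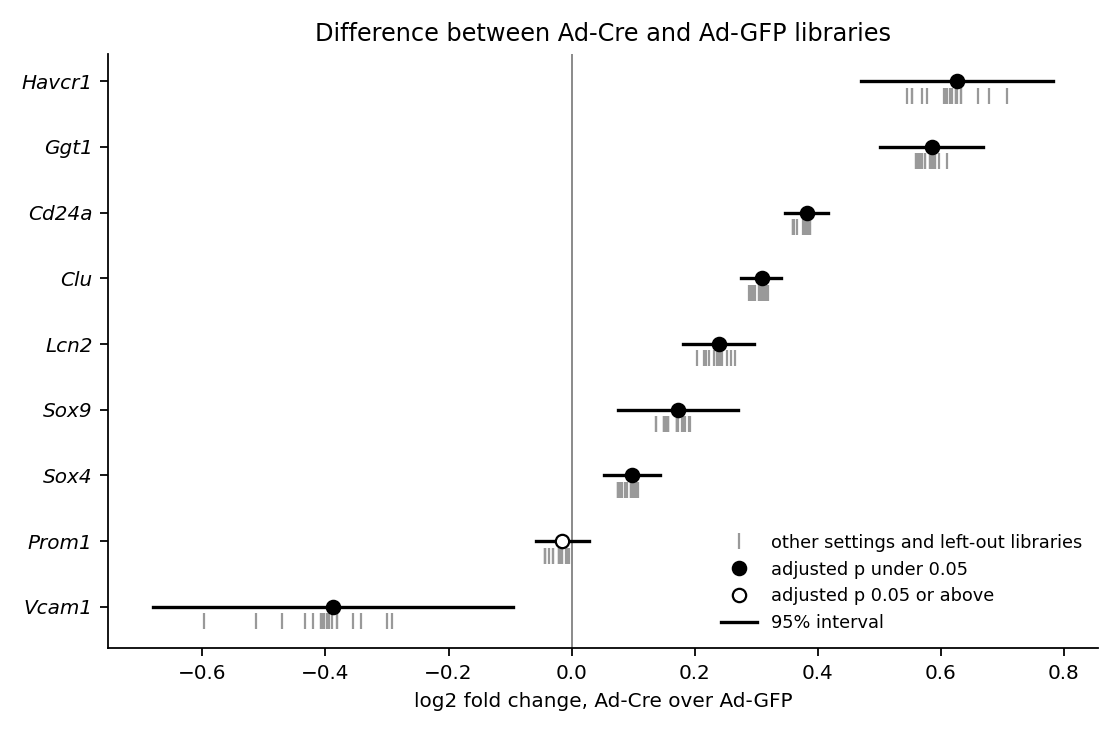
Log2 fold change of Ad-Cre over Ad-GFP for the 9 genes, with 95% intervals from edgeR. Grey ticks under each gene are the values under 19 other settings, 8 of which leave out one library. Havcr1 and Ggt1 are farthest to the right, Prom1 sits at -0.015, and the ticks of Vcam1 spread from -0.60 to -0.29.

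The relative transcript length implied by each count and its FPKM was constant for most of the 9 genes but not for Vcam1. It ranged from 0.74 to 1.06 of the median library for Vcam1 (coefficient of variation 12.8%), from 0.951 to 1.073 for Ggt1 and from 0.925 to 1.053 for Havcr1. For Lcn2, Sox4, Sox9 and Cd24a the coefficient of variation was under 0.05%. FPKM and counts can therefore give different folds for Vcam1, and limma on log2(FPKM + 0.1) gave it a log2 fold change of -0.60 (adjusted p = 0.037) in place of -0.39.

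Other genes of tubular injury and failed repair rose more often than they fell. Of 26 listed, 25 were tested, 13 rose and 6 fell (median log2 value 0.17), against 19.8% higher and 20.5% lower among all tested genes. Spp1, encoding osteopontin, was the most abundant and rose to 10197.6 ± 414.8 CPM in Ad-Cre, against 7464.5 ± 165.4 CPM in Ad-GFP (SD, n = 4; edgeR adjusted p = 5.39e-15). Sema5a, a semaphorin gene, rose to 180.6% of Ad-GFP (adjusted p = 8.91e-14). Vim, which encodes the filament protein vimentin of mesenchymal and dedifferentiated cells, fell to 66.3% (adjusted p = 1.05e-14). Genes named after their values were seen include the failed-repair marker Dcdc2a, at 497.4 CPM in Ad-Cre and 424.0 CPM in Ad-GFP, which rose (edgeR adjusted p = 3.79e-09), and the injury keratin gene Krt20, at 6.49 CPM in Ad-Cre and 11.7 CPM in Ad-GFP, which fell (edgeR adjusted p = 1.89e-08). Tff3 had no count in any library, which allows up to 0.126 to 0.188 CPM by a limit of 3 counts per library, for counting error only.

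Genes of the kidney lineage, most of them for transcription factors, also rose more often than they fell. Of 10 genes 8 were tested, 5 rose and 1 fell (median log2 value 0.18), against 19.8% higher and 20.5% lower among all tested genes. Among the 5 rises was the adhesion gene Ncam1, which is not a transcription factor gene, at 114.5% of Ad-GFP (edgeR adjusted p = 0.000478). Limma on log2(FPKM + 1) called 3 higher and 0 lower, and the lower call was also lost without Ad-Cre replicate 1 or 3. Pax2 rose to 47.2 ± 3.7 CPM in Ad-Cre, against 36.8 ± 1.6 CPM in Ad-GFP (SD, n = 4; edgeR adjusted p = 5.86e-06). By the same test, Lhx1 rose to 120.7% (adjusted p = 9.3e-06; 0.0975 by limma on log2(FPKM + 1)) and Pax8, the most abundant, to 111.6% of Ad-GFP (adjusted p = 0.00063). These genes act in the early nephron. The fall was in Eya1, at 0.54 CPM in Ad-Cre and 1.10 CPM in Ad-GFP (edgeR adjusted p = 0.0143). Sall1 (adjusted p = 0.568) and Osr1 (adjusted p = 0.61) were not called. Eya1, Sall1, Osr1 and Ncam1 were named after their values were seen. The cap mesenchyme genes Six2 and Cited1 had too few counts to be tested.

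Genes of the mature proximal tubule were mostly scarce beside Ggt1. Only 7 of 21 could be tested, and 2 rose and 1 fell, against 19.8% higher and 20.5% lower among all tested genes. Without Ad-GFP replicate 2, which adds Lrp2, 2 were called lower, and limma on log2(FPKM + 1) called 1 higher. Slc22a6, Slc22a8 and Acsm2 had no count in any library. The list summed to 80.8 to 92.3 CPM in Ad-Cre and 64.7 to 75.4 CPM in Ad-GFP. The mean sums were 85.7 CPM in Ad-Cre and 70.2 CPM in Ad-GFP, a smaller gap than that of Aqp1 alone. The higher sum thus does not describe the list without Aqp1. The water channel gene Aqp1 rose to 22.4 ± 3.0 CPM in Ad-Cre, against 4.52 ± 0.86 CPM in Ad-GFP (SD, n = 4; edgeR adjusted p = 1.02e-14). Cubn, an endocytic receptor gene, rose to 138.8% (adjusted p = 0.00209), whereas Gatm, of creatine synthesis, fell to 65.8% (adjusted p = 0.000211). Lrp2, the megalin gene and most abundant of the list, was at 36.6 ± 1.8 CPM in Ad-Cre and 39.5 ± 3.3 CPM in Ad-GFP (adjusted p = 0.112).

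The other SOX genes did not follow Sox9 and Sox4 as a family. Of 12 genes 9 were tested, 3 rose and 4 fell (median log2 value -0.20), against 19.8% higher and 20.5% lower among all tested genes. Without Ad-Cre replicate 4, or without Ad-GFP replicate 3, only 1 was called higher. The rises were in Sox8, at 150.0% of Ad-GFP (edgeR adjusted p = 7.6e-05), Sox12, at 118.1% (adjusted p = 0.0149), and Sox6, at 112.6% (adjusted p = 0.0433). The groups overlapped for Sox12 and Sox6 but not for Sox8, and these 3 genes were named after their values were seen. The falls of smallest p were in Sox17, at 38.6% of Ad-GFP (edgeR adjusted p = 2.64e-13), Sox7, at 57.5% (adjusted p = 7.03e-06), and Sox13, at 79.4% (adjusted p = 3.51e-05). Sox17 and Sox7 are SOXF genes that endothelial cells express, and the endothelial list fell in the same libraries. The part of endothelial cells in the Sox17 and Sox7 falls was not tested. Sox11, the other abundant SOXC gene, was at 120.9 ± 3.8 CPM in Ad-Cre and 116.3 ± 1.2 CPM in Ad-GFP (adjusted p = 0.122).

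NF-kB inducible genes, the set to which Lcn2 and Vcam1 are often assigned, went both ways. Of 20 genes 18 were tested, 5 rose and 4 fell (median log2 value -0.02), against 19.8% higher and 20.5% lower among all tested genes. Nfkb1, encoding the p50 precursor, rose to 127.7% (edgeR adjusted p = 4.58e-10) and Nfkbiz, a nuclear cofactor gene, to 118.1% (adjusted p = 7.68e-08). Tnfaip3, the feedback inhibitor A20, fell to 88.0% of Ad-GFP (adjusted p = 0.000123).

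Partners of the 9 proteins were measured as well. Of 18 receptors, ligands, sheddases and relatives 15 were tested, 4 rose and 5 fell (median log2 value -0.05). Among all tested genes 19.8% were called higher and 20.5% lower. Without Ad-Cre replicate 1, 3 were called lower, and limma on log2(FPKM + 1) called 1 higher and 3 lower. Adam10, which encodes a protease able to shed surface proteins, rose to 110.9% (edgeR adjusted p = 5.38e-05). Timd2, of the same TIM family as Havcr1, rose to 2.39 ± 0.57 CPM in Ad-Cre, against 0.93 ± 0.10 CPM in Ad-GFP (adjusted p = 4.24e-05). Mmp9, the gelatinase that forms a complex with lipocalin 2, fell to 52.6% of Ad-GFP (adjusted p = 1.46e-07). Itgb1, encoding the β1 chain of the Vcam1 receptor and the most abundant of the list, was at 96.9% of Ad-GFP (adjusted p = 0.0251), a call lost without Ad-Cre replicate 1 or 3 or Ad-GFP replicate 1 or 2 (adjusted p = 0.0525 to 0.0858).

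In the glutathione pathway, Ggt1 rose while the synthesis genes Gclc and Gss fell. Of 11 genes 9 were tested, 1 rose and 4 fell (median log2 value -0.12), against 19.8% higher and 20.5% lower among all tested genes. Gclc, the catalytic subunit gene of the rate-limiting step, fell to 53.9 ± 3.4 CPM in Ad-Cre, against 76.2 ± 3.4 CPM in Ad-GFP (SD, n = 4; edgeR adjusted p = 8.57e-10). The 5-oxoprolinase gene Oplah fell to 86.8% (adjusted p = 0.000309) and the synthetase gene Gss to 88.0% (adjusted p = 0.00707). Gclm, the modifier subunit gene, was called higher at 106.1% with an adjusted p = 0.0498, a call lost by DESeq2 (0.114) and without any one library other than Ad-Cre replicate 3, and it was at -0.01 on the log2 scale in the FPKM fits.

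**Figure D4:**
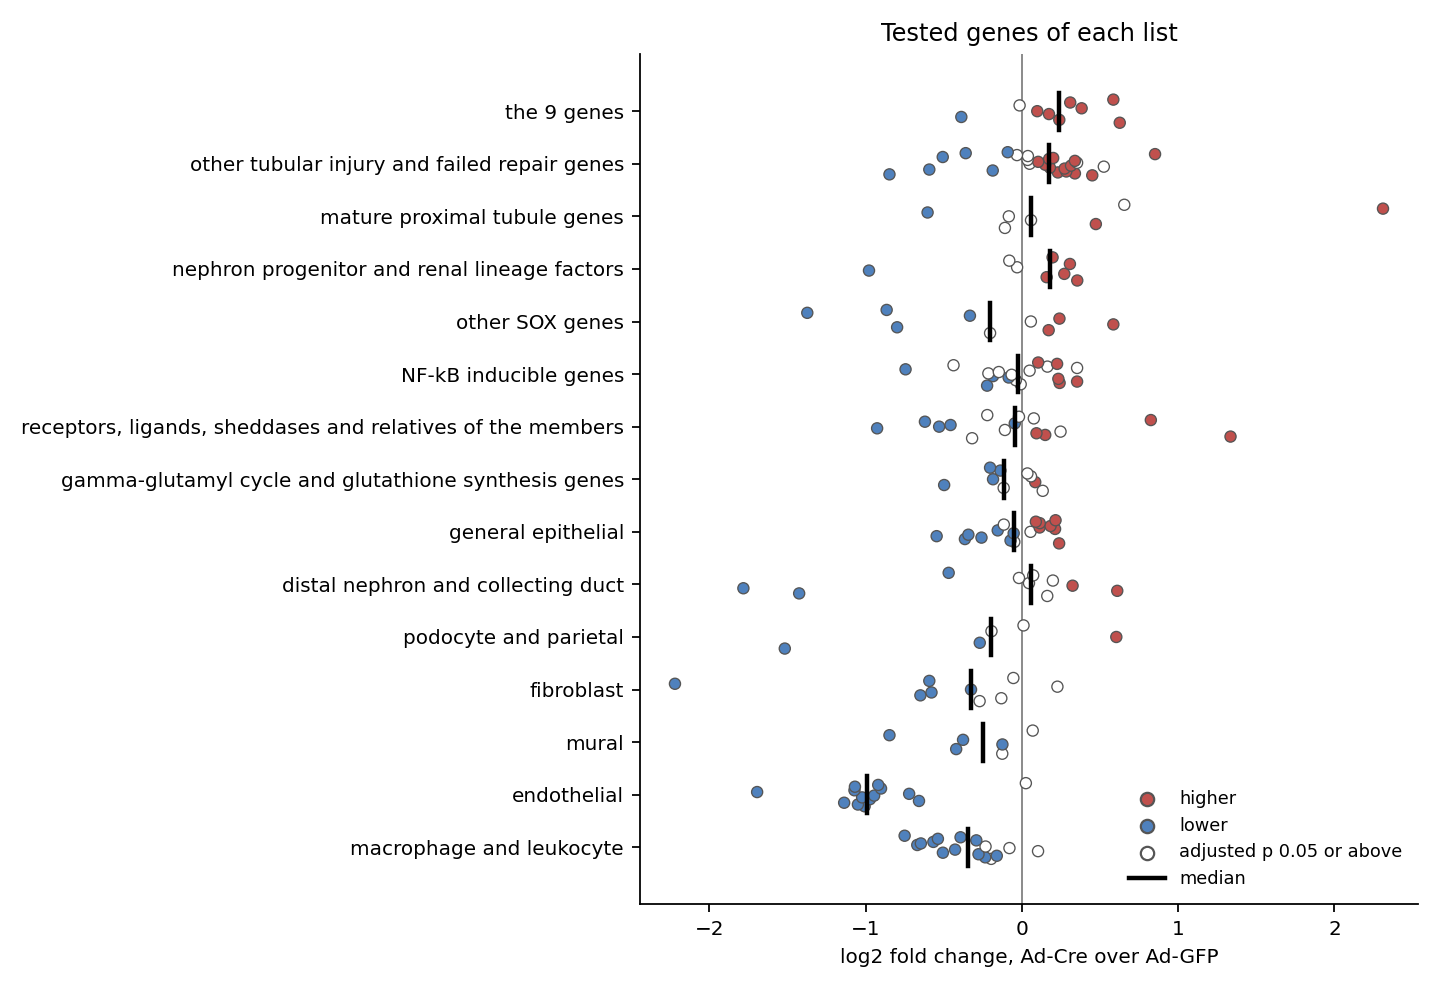
Log2 fold change of Ad-Cre over Ad-GFP for every tested gene of the 9 and of 14 lists. Each point is a gene, red or blue where edgeR called it higher or lower and white otherwise, and the black bar is the median. The 9 genes, the other injury genes and the kidney lineage list have medians of 0.17 or more, and the endothelial list has a median of -0.99.

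Markers of endothelial cells, fibroblasts, leukocytes and mural cells were lower in Ad-Cre beside these rises, while those of the distal nephron summed higher. The counts of each list stand against 19.8% higher and 20.5% lower among all tested genes. Of 9 tested fibroblast markers 5 were lower and 0 higher, and the list summed to 469.0 to 543.7 CPM in Ad-Cre and 733.1 to 780.2 CPM in Ad-GFP. Among 16 markers of macrophages and other leukocytes, 12 were lower and 0 higher, at 293.8 to 305.6 CPM in Ad-Cre and 339.0 to 392.4 CPM in Ad-GFP. The most abundant, Lyz2, was at 113.2 ± 3.2 CPM in Ad-Cre and 126.3 ± 9.3 CPM in Ad-GFP, and Csf1r was at 82.5% of Ad-GFP. Of 6 tested mural markers 4 fell and 0 rose, at 232.0 to 244.9 CPM in Ad-Cre and 265.2 to 279.6 CPM in Ad-GFP, with Mcam at 91.7% and Notch3 at 104.9% of Ad-GFP. General epithelial markers went both ways, with 7 higher and 7 lower of 17, and summed to 5591.4 to 5630.3 CPM in Ad-Cre and 6082.3 to 6316.9 CPM in Ad-GFP. Krt8 fell to 77.6% of Ad-GFP (edgeR adjusted p = 5.47e-14). Cldn4 was at 96.4% with overlapping groups (adjusted p = 0.0465), a call lost by DESeq2 (0.0515) and without Ad-Cre replicate 2 or 4 or Ad-GFP replicate 2, 3 or 4 (0.081 to 0.16). Markers of the distal nephron and the collecting duct had 2 rises and 3 falls among 10 tested, with Scnn1a at 125.2% and Gata3 at 105.1%. This list summed to 163.1 to 173.4 CPM in Ad-Cre and 137.9 to 146.3 CPM in Ad-GFP without overlap. Limma on log2(FPKM + 1) called 1 of its genes lower, and a minimum mean of 5 CPM, which tests fewer genes, left 0 lower. Podocyte and parietal markers had 1 rise and 2 falls among 5, with Cldn1 at 100.7% and Podxl at 82.9%, and summed to 414.1 to 434.4 CPM in Ad-Cre and 396.1 to 430.6 CPM in Ad-GFP. The part of any of these in the rises of the 9 genes was not tested.

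As a description of likeness over the 8 libraries, which share the 2 groups, genes of at least 5 CPM with the highest Pearson r of log2 CPM were found for 4 members. The highest for Havcr1 was Akr1b3, an aldose reductase gene (r = 0.984). For Lcn2 they were the NADPH oxidase gene Nox4 (0.996) and Nucks1 (0.987), for Sox9 Arhgef19 (0.986) and Rab22a (0.983), and for Vcam1 the collagen gene Col8a1 (0.978) and Zfp260 (0.974). With 10683 candidates and 8 libraries, values of this size carry no test. Akr1b3 was at 352.7 ± 28.6 CPM in Ad-Cre and 243.7 ± 25.7 CPM in Ad-GFP (SD, n = 4; edgeR adjusted p = 6.38e-09).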

How the data were processed

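RNA sequencing libraries of 4 Ad-Cre and 4 Ad-GFP samples were analysed from the deposited table. Per the file headers it holds read counts, which are whole numbers, and FPKM values that the authors computed. The authors' deposited log2 fold change and p-value columns have no named test. The submitters' processing notes name GRCm38 and mm10. Aligner, counter, strand setting and annotation: not given in the sources used here. Implied gene length varied by over 1% between libraries for 1758 of 3673 genes above 1000 counts in every library, and the counts may therefore be rounded estimates.

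The deposited counts were fitted in edgeR 4.0.16 (R 4.3.3) after filterByExpr, which kept 13337 genes, and TMM scaling. The contrast of Ad-Cre over Ad-GFP was tested by the two-sided quasi-likelihood F-test with Benjamini-Hochberg adjustment over all tested genes and a threshold of 0.05. "Rose" and "fell" mean that a gene passed it. SE was derived from the log2 fold change and its F statistic. Alternatives were RLE and upper-quartile factors, no filter, DESeq2 1.42.0, a minimum mean of 5 CPM, voom with limma 3.58.1, limma on log2(FPKM + 1) and log2(FPKM + 0.1) for genes with a mean of at least 1 FPKM, the first of them also without a filter, a replicate block, thinning to 15879244 counts, and leaving out each library. The fit was tested on simulated data. Motifs were matched in RefSeq windows of GRCm38.p6, and positions are from GENCODE M21.

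The members and lists were chosen with earlier results of these data known. Named genes are all members and Suv39h1, the 3 called genes of smallest p and the most abundant gene of each pathway list, the 2 most abundant of each marker list, and 2 genes of like pattern for 4 members. Genes that this rule names but the text does not are not reported here. Epcam, the fibroblast markers beyond Vim and Col1a1, Six2 and Cited1, and other genes so marked in the text, were named after their values were seen.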

Additional observations from a re-analysis of the deposited data

Results flagged for a closer look

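Among the genes named above, 5 had one library that stood apart from the other 3 of its group, by a test on the gap to the nearest library. Chance flags about 1 in 20 groups, and 114 groups were looked at, so this number is near what chance gives. None of the 9 tubular injury and progenitor genes was among them. Gclc was at 71.0 CPM in Ad-GFP replicate 2, against 77.3 to 78.3 CPM in the others of that group. Mcam was at 143.6 CPM in Ad-GFP replicate 1, against 150.4 to 151.2 CPM. Mmp9 was at 7.28 CPM in Ad-GFP replicate 1, against 8.68 to 8.81 CPM. Nfkb1 was at 111.3 CPM in Ad-GFP replicate 2, against 108.2 to 108.4 CPM. Sox7 was at 4.30 CPM in Ad-Cre replicate 4, against 3.53 to 3.64 CPM.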

How the results depend on the processing

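Directions of all 9 genes were kept under all 19 alternatives, and 7 of them were called higher under 18 of these. Limma on log2(FPKM + 1) without a filter called 6, losing Sox9 (log2 fold change 0.137), and 0 lower, losing Vcam1 (-0.398, adjusted p = 0.0653). Thinning to equal totals also left 0 lower (Vcam1 -0.382, adjusted p = 0.0631). Leaving out one library gave Vcam1 -0.513 to -0.292 and 0 to 1 genes lower. Over all tested genes, 5370 were called, 2641 of them higher (49.2%). Limma on log2(FPKM + 1) called 3530 and 1400 higher, on log2(FPKM + 0.1) 3520 and 1393 higher, and without a filter 1266 higher (34.7%). A minimum mean of 5 CPM, which tests fewer genes, left 7 endothelial markers lower. Gclm (-0.01 in each FPKM fit) and Rab22a (-0.062 with the pseudocount 0.1 and -0.06 with 1) changed sign. The cause was not tested. With the replicate number as a block, 5390 genes were called and no call among the 9 changed (Vcam1 -0.408, adjusted p = 0.0183). Same-numbered libraries correlated by -0.012 to 0.104 in their deviations, and 4 of 8 libraries matched their own number best, so the numbers were not taken as pairs. Counts of 62 to 125 per library limit Vcam1.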
